A study of Homo sapiens with 8 samples.

Results

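The 10 genes described here encode the endosomal coat complexes retromer and retriever, the sorting nexins that work with retromer, and a pair of sorting receptors. They were taken as every row of the count table whose symbol was VPS35, VPS26A, VPS26B, VPS29, VPS35L, SNX1, SNX2, SNX27, SORT1 or SORL1, and all 10 were found among 58870 rows. The rule used gene symbols and no measured value, but the list was chosen with earlier results of these data known. RNA was sequenced from Panc 10.05, an established line of human pancreatic ductal adenocarcinoma cells. There were 4 control libraries and 4 libraries labelled as ELAPOR1 overexpression. ELAPOR1 encodes an endosome and lysosome membrane protein. No treatment, time, vector, promoter or clone is given in the labels for either group, and both groups are the same line. Nothing says that the libraries of a group came from separate cultures, so p-values measure only the spread between these libraries, which may be technical.

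Retromer is a coat built of VPS35, VPS29 and either VPS26A or VPS26B that recovers membrane proteins from endosomes before they reach the lysosome. The sorting nexins SNX1 and SNX2 bend the membrane of the carriers with SNX5 or SNX6, and SNX27 hands cargo to retromer for return to the cell surface. Retriever is a related coat of VPS35L, VPS26C and the shared VPS29, which works with the CCC complex of COMMD proteins, CCDC22 and CCDC93. SORT1 (sortilin) and SORL1 (SorLA) are receptors that carry proteins between the Golgi, endosomes and the cell surface, and retromer recycles them.

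The start sites of 3 of the genes are shown for reference. VPS35L differs most in level between the groups, and VPS35 is its retromer counterpart. SORL1 is the only one of the 9 members with a window whose window holds CACGTG. This is 1 form of the E-box, and other forms were not searched. No value measured here bears on these sequences. The sequences are RefSeq's on GRCh38.p14, 250 bases before to 50 after the start, read 5′ to 3′ on the gene's strand. They are reference sequence and were not read from these cells. Capitals mark a repeat in VPS35L, CCAAT boxes on either strand in VPS35 and the E-box form CACGTG in SORL1.
VPS35L, plus strand, chr16:19555453-19555752: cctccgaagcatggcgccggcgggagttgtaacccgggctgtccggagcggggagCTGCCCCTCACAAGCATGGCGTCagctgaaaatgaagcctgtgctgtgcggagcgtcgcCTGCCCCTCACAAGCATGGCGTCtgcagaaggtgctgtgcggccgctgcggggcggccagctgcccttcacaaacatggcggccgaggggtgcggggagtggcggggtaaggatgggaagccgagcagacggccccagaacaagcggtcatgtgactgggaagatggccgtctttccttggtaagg
VPS35, minus strand, chr16:46689129-46689428: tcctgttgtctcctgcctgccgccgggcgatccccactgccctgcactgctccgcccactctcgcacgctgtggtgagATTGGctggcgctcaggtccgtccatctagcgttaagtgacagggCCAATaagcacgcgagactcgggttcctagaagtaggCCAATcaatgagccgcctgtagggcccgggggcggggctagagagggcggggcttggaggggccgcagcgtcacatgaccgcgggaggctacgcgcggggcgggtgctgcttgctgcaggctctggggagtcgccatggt
SORL1, plus strand, chr11:121452064-121452363: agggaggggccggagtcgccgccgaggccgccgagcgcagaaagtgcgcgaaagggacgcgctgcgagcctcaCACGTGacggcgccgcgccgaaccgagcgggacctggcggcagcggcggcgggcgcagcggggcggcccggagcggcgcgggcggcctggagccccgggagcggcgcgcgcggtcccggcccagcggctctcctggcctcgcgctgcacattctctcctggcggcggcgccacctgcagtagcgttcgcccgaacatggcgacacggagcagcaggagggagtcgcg

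The VPS35L window holds 2 exact copies of a stretch of 23 bases, and 1.97% of 35116 RefSeq windows of the same length hold an exact repeat at least as long. Windows were found for 9 members, VPS26A being the one with no match. The E-box CACGTG, the core of the CLEAR element bound by the lysosomal regulator TFEB, was found on either strand in 1 of the 9 (SORL1) and in 7.26% of all windows. The CCAAT box was found in 3 of the 9 (VPS35, VPS29 and SORT1) and in 34.6% of all windows. The full CLEAR palindrome was in none of the 9 and in 0.353% of all windows. The sterol response element TCACNCCAC and the interferon-stimulated response element core were in none of the 9, and in 1.13% and 3.57% of all windows.

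Library totals ran from 13765509 to 18128757 counts. The overexpression was checked first: ELAPOR1 had 1, 1, 4 and 4 counts in the control libraries and 7006, 6422, 5910 and 7368 in the ELAPOR1 libraries, so all 8 libraries matched their labels. Epithelial keratins and adhesion genes were high in both groups (8 of 8 markers, summed level 12521 to 13843 CPM in control and 11663 to 11990 in ELAPOR1 libraries). The 8 fibroblast markers summed to 3.12 to 4.43 CPM in control and 2.996 to 3.25 in ELAPOR1 libraries, with COL1A2, DCN and LUM at 0. The 5 endothelial markers summed to 1.65 to 2.13 CPM in control and 0.575 to 0.997 in ELAPOR1 libraries, nearly all VWF, with CDH5 at 0. The 7 blood cell markers summed to 84.2 to 90.6 CPM in control and 73.6 to 79.3 in ELAPOR1 libraries, nearly all CD68, with CD3E at 0. Of the epithelial markers 3 were called higher and 4 lower, and the part of these markers in the results below was not tested. CPM is counts per 1000000 after TMM scaling. In RNA of whole cultures, fewer cells that express a gene and less of its RNA per cell cannot be told apart.

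Of the 10 genes, VPS35 rose in ELAPOR1 libraries, VPS35L went from near 0 to a low level, SNX2, VPS26B, SORL1 and SNX27 fell, and VPS26A, VPS29, SNX1 and SORT1 did not pass the test. Apart from VPS35L the changes were small: SNX2 fell by 13.6%, VPS26B fell by 12.2%, SORL1 fell by 12.1% and SNX27 fell by 7.97%, while VPS35 rose by 9.68%. The test was edgeR's quasi-likelihood test over 13860 genes, with a call at a Benjamini-Hochberg adjusted p under 0.05. It called 44.7% of all tested genes (22.6% higher and 22.1% lower), and 51.5% of the 10701 tested genes whose mean reached 5 CPM. Without VPS35L, which is described on its own because it entered the test only through the ELAPOR1 libraries, 5 of 9 genes were called, 1 higher and 4 lower. The median log2 fold change of these 9 was -0.11, and that of all tested genes 0.001. For 5 of the 10 genes the groups did not overlap, 2 higher and 3 lower, beside 39.2% of all tested genes. The higher ones were VPS35 and VPS35L, and the lower ones VPS26B, SNX2 and SNX27. This count thus includes VPS35L, which entered the test only through the ELAPOR1 libraries.

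**Figure D1:**
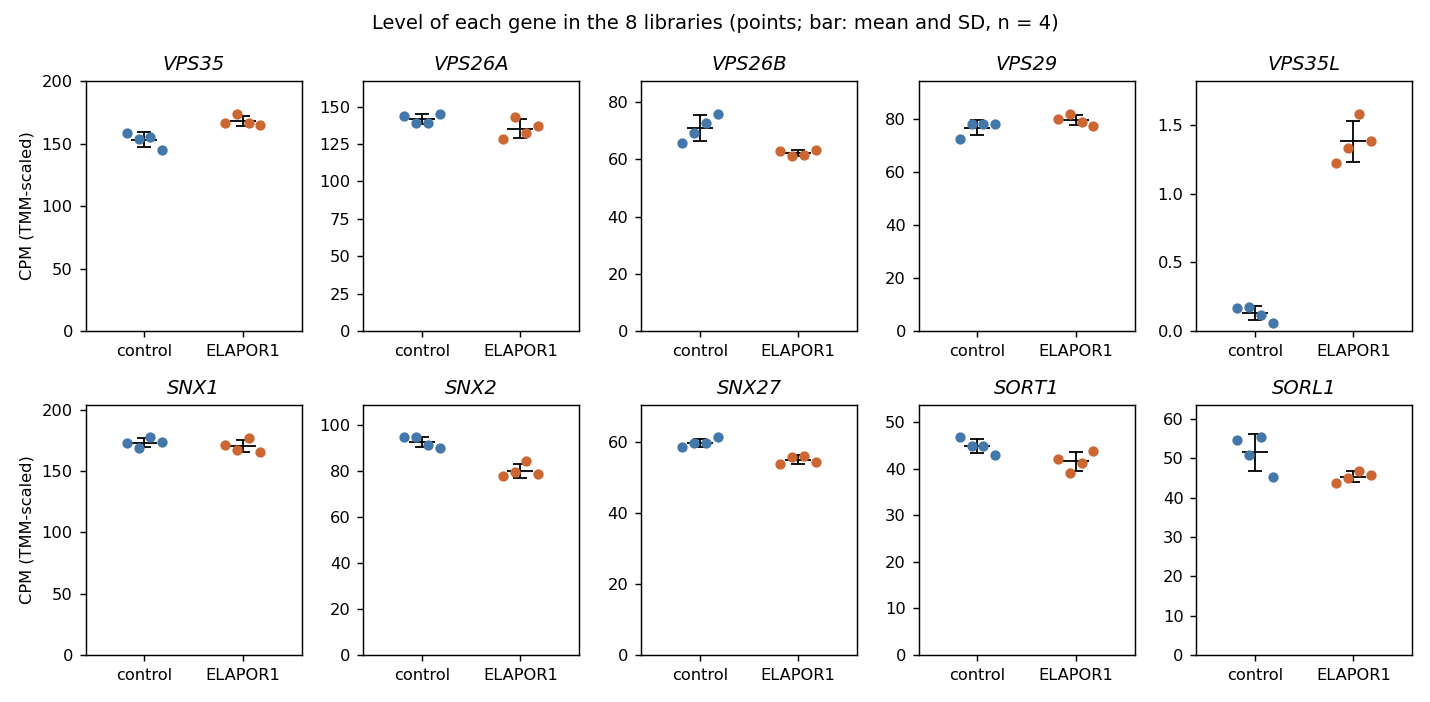
Level of each of the 10 genes in CPM (vertical axes, each from 0) in the 4 control and 4 ELAPOR1 libraries; points are libraries and the bar is the mean with its SD. VPS35L stands near 0.131 CPM in control and 1.38 CPM in ELAPOR1 libraries, while the changes of the other 9 genes are small beside their levels.

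VPS35L (ENSG00000103544.14, plus strand of chromosome 16, 19555240 to 19706793 in GRCh38) encodes the subunit around which retriever is built, the counterpart of VPS35 in retromer. It had 3, 3, 2 and 1 counts in the control libraries and 20, 20, 22 and 24 in the ELAPOR1 libraries. In CPM these were 0.166, 0.177, 0.120 and 0.0609 against 1.23, 1.33, 1.58 and 1.38. Every control library lay at or under 3 counts, the floor used here for detection, and every ELAPOR1 library lay above it. The groups do not overlap (two-sided exact permutation p = 0.0286, the lowest value possible with 4 against 4; this test does not use the filter on low counts).

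Summed over libraries, 9 control and 86 ELAPOR1 counts gave a 10.4-fold higher rate in ELAPOR1, with an exact 95% interval of 5.23 to 23.5 that covers counting error only. The fitted log2 fold change was 3.31 with an SE of 0.442, and is given as a description, since the gene met the filter only through the ELAPOR1 libraries. The level in ELAPOR1 libraries was still low, 0.529 ± 0.0578 TPM (transcripts per 1000000, scaled by exon length, SD, n = 4) against 0.0493 ± 0.0200 in control.

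The genes on either side of VPS35L were expressed in both groups. CCP110, the nearest tested gene before it, rose from 20.6 ± 1.22 to 26.9 ± 1.78 CPM (SD, n = 4 each, log2 fold change 0.38, edgeR adjusted p = 3.6e-05). KNOP1, the nearest after it, rose from 24.1 ± 1.69 to 33.5 ± 2.23 CPM (0.47, adjusted p = 3.9e-07). KNOP1 lies on the opposite strand and shares 1678 exon bases with VPS35L in the annotation. The use of strand in the authors' counting is not given in the sources used here, so reads from the shared stretch could have been given to either gene, and their part in the VPS35L counts was not tested. These 2 neighbours were named after their values were seen.

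Many genes near VPS35L on chromosome 16 were called higher too. Of all tested genes 22.6% were called higher and 22.1% lower. Of the 20 tested genes nearest to it (10 on each side, from 18.4 to 21.2 Mb), 17 had a positive log2 fold change, 13 were called higher and 1 lower. Their median log2 fold change was 0.38, under the fitted 3.31 of VPS35L. VPS35 is on the same chromosome 26.9 Mb away, on the minus strand from 46656132 to 46689518. Its 20 nearest tested genes span a wide window, from 31.5 to 48.6 Mb, and 8 were called higher and 2 lower. Their median was 0.15, beside 0.13 for VPS35. That median depends on the window and was 0.049 over 20 genes on each side. For the other 8 genes the medians of the neighbours ran from -0.092 (SNX1) to 0.026 (VPS26B).

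**Figure D2:**
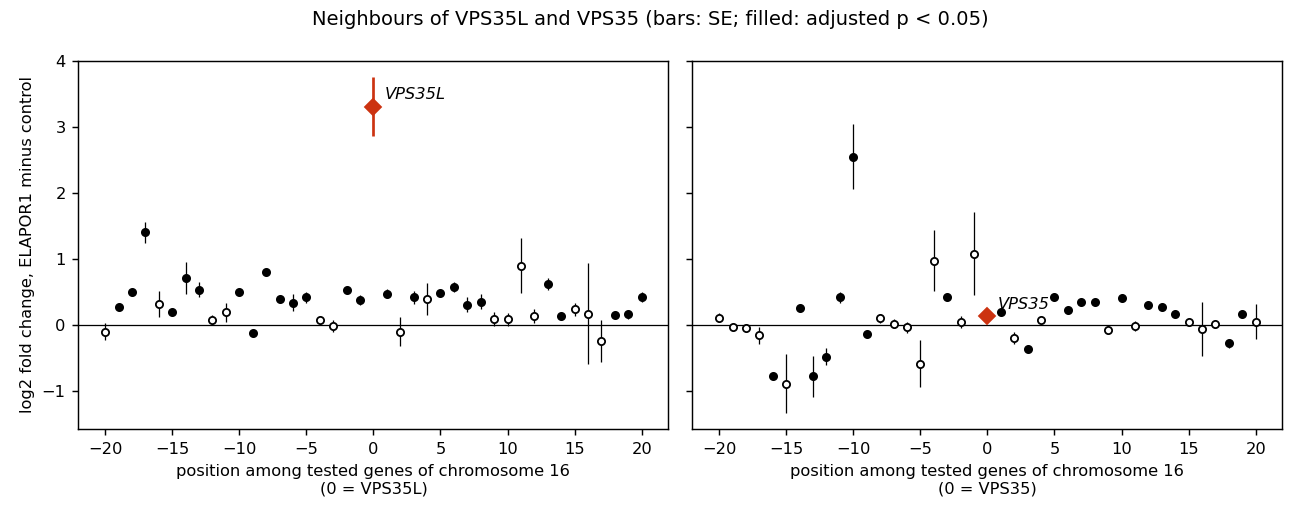
Log2 fold change (vertical axis, ELAPOR1 minus control, bars are the SE) of the tested genes around VPS35L and VPS35, by position in gene order (horizontal axis, 0 is the named gene). VPS35L stands at 3.31 above neighbours whose median is 0.38, and VPS35 at 0.13 among neighbours whose median is 0.15.

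The other parts of retriever and its CCC partners were present in both groups. VPS26C, the second retriever-specific subunit, was at 50.7, 50.5, 49.8 and 50 CPM in control and 43.6, 43.7, 39.1 and 40.0 CPM in ELAPOR1 libraries. It fell in ELAPOR1, with no overlap between groups (log2 fold change -0.27, SE 0.0516, edgeR adjusted p = 5.2e-05). Per length, VPS26C was at 19.8 ± 0.371 TPM in control and 16.8 ± 0.968 TPM with ELAPOR1 (SD, n = 4 each), far above VPS35L in both. CCDC93, a CCC scaffold subunit, rose (0.24, adjusted p = 2.6e-05), while its partner CCDC22 fell (-0.29, adjusted p = 1.2e-03).

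In all, 8 of the 14 retriever and CCC partners (57.1%) passed the test, 2 higher and 6 lower, with a median log2 fold change of -0.11. The share was 44.7% for all tested genes and 51.5% for those with a mean of at least 5 CPM. The largest rise was that of COMMD1, a copper-linked CCC subunit, from 10.8 ± 1.82 to 15.5 ± 1.76 CPM (0.52, edgeR adjusted p = 1.4e-04). COMMD6 fell from 18.6 ± 1.11 to 14.7 ± 1.09 CPM (n = 4 each, -0.34, adjusted p = 8.2e-04). Of the 10 COMMD genes 1 was called higher and 3 lower, COMMD2 (-0.17) and COMMD4 (-0.20) being the others.

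VPS35, the arch-shaped scaffold of retromer, was at 159, 154, 156 and 145 CPM in control and 167, 174, 167 and 165 CPM in ELAPOR1 libraries. Every ELAPOR1 library was above every control library. It rose by 0.13 on the log2 scale with an SE of 0.0347 (edgeR adjusted p = 2.0e-03). VPS29, the small subunit that retromer and retriever share (minus strand of chromosome 12, 110491097 to 110502117), was at 72.3, 78.2, 78.2 and 78.1 CPM in control and 79.8, 81.9, 78.8 and 77.4 CPM in ELAPOR1 libraries. The groups overlap, and the change of 0.05 did not pass the test (adjusted p = 0.334, approximate 95% interval -0.03 to 0.13). Without control replicate 1, the lowest library, it was 0.018 (adjusted p = 0.757).

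VPS26A and VPS26B are paralogs that occupy the same place in retromer. VPS26B (plus strand of chromosome 11, 134224645 to 134247792) was at 65.7, 69.3, 72.7 and 75.9 CPM in control and 62.8, 61.0, 61.3 and 63.4 CPM in ELAPOR1 libraries. It fell with no overlap between groups (log2 fold change -0.19, SE 0.0466, edgeR adjusted p = 1.2e-03), and the control libraries were spread more widely than the ELAPOR1 libraries. VPS26B shares 249 exon bases with NCAPD3 on the opposite strand, and the split of reads from that stretch was not tested. VPS26A (plus strand of chromosome 10, 69123512 to 69172861) was at 144, 139, 139 and 145 CPM in control and 128, 143, 132 and 137 CPM in ELAPOR1 libraries. The groups overlap and the change of -0.07 was not called (adjusted p = 0.131, approximate interval -0.14 to 0.00).

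The balance of the paralogs was read within each library as a log2 ratio per exon length, which does not depend on scaling between libraries. VPS26A exceeded VPS26B 3.64-fold in control and 3.95-fold in ELAPOR1 libraries, and 2.29-fold and 2.49-fold with the length of the longest transcript. The log2 ratio was 1.86 ± 0.0907 against 1.98 ± 0.0824 (SD, n = 4 each), a difference of 0.12 that did not pass (two-sided exact permutation p = 0.114, adjusted p = 0.179 over 5 ratios). VPS29 to VPS35 was at 1.52-fold in control and 1.43-fold in ELAPOR1 libraries (difference -0.08 in log2, exact permutation p = 0.143, adjusted p = 0.179).

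Of the membrane-bending nexins SNX2 fell and SNX1 was not called. SNX2 (plus strand of chromosome 5, 122774996 to 122830108) was at 94.8, 94.8, 91.7 and 90.3 CPM in control and 78.1, 79.8, 84.7 and 78.7 CPM in ELAPOR1 libraries. It was lower in every ELAPOR1 library than in any control library (log2 fold change -0.21, SE 0.0407, edgeR adjusted p = 6.0e-05). SNX1, its paralog on the plus strand of chromosome 15 (64094123 to 64146090), was at 172, 169, 177 and 174 CPM in control and 171, 167, 177 and 166 CPM in ELAPOR1 libraries. These groups overlap, and the change of -0.02 was not called (adjusted p = 0.572, approximate 95% interval -0.09 to 0.04).

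Within a library, the log2 ratio of SNX1 to SNX2 was -0.338, -0.369, -0.248 and -0.256 in control and -0.068, -0.136, -0.139 and -0.126 in ELAPOR1 libraries. The groups do not overlap, and SNX1 made up 44.8 ± 1.0% of the SNX1 and SNX2 transcripts per length in control and 48.0 ± 0.58% with ELAPOR1 (SD, n = 4 each). With the length of the longest transcript the SNX1 shares were 32.8% and 35.7%. The difference of 0.19 had that lowest possible exact permutation p as well (0.0286), but did not pass after adjustment over 5 ratios (adjusted p = 0.0714). Of the partners of SNX1 and SNX2, SNX6 fell from 104 ± 2.11 to 94.6 ± 2.26 CPM (SD, n = 4 each, -0.13, edgeR adjusted p = 4.7e-03). SNX5 was at 182 ± 2.03 and 175 ± 3.69 CPM and, although the groups did not overlap, was not called (-0.06, adjusted p = 0.157).

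SNX27, the cargo adaptor with a PDZ domain (plus strand of chromosome 1, 151612006 to 151699091), was at 58.5, 59.8, 59.8 and 61.4 CPM in control and 53.8, 56.0, 56.2 and 54.5 CPM in ELAPOR1 libraries. All ELAPOR1 libraries were below all control libraries (log2 fold change -0.12, SE 0.0452, edgeR adjusted p = 0.0300). The call lies close to the threshold and was lost without control replicate 2 (adjusted p = 0.0542), control replicate 3 (0.0550), control replicate 4 (0.0664), ELAPOR1 replicate 1 (0.0821) or ELAPOR1 replicate 4 (0.0723). It was also lost with total count scaling (adjusted p = 0.0751) and with no filter (0.0575).

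Of the receptors, SORL1 (plus strand of chromosome 11, 121452203 to 121633693) was at 54.7, 50.8, 55.3 and 45.2 CPM in control and 43.6, 44.9, 46.9 and 45.8 CPM in ELAPOR1 libraries. It fell (log2 fold change -0.19, SE 0.0563, edgeR adjusted p = 6.9e-03), although control replicate 4 lay within the ELAPOR1 range. SORT1 (minus strand of chromosome 1, 109309568 to 109397951) was at 46.8, 45.0, 45.0 and 43.0 CPM in control and 42.2, 39.1, 41.2 and 44.0 CPM in ELAPOR1 libraries. The groups overlap and the change of -0.11 was not called (adjusted p = 0.0921, approximate 95% interval -0.21 to -0.01). It passed once each library's trends with GC content and gene length had been taken out (-0.14, adjusted p = 0.0159).

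The ratio of SORT1 to SORL1 within a library was 1.86 in control and 1.95 in ELAPOR1 libraries, a difference of 0.07 in log2 (two-sided exact permutation p = 0.314, adjusted p = 0.314). SORT1 lies 103 kb beyond the end of the endogenous ELAPOR1 gene. Of its nearest tested neighbours, PSRC1 fell (-0.14, edgeR adjusted p = 0.0292) and PSMA5 was not called (0.04, adjusted p = 0.442). Next on the ELAPOR1 side, CELSR2 (-1.01, adjusted p = 8.7e-04, 2.83 CPM in control) and SARS (-0.42, adjusted p = 1.4e-10) fell further. Among the 20 tested genes nearest to SORT1, 3 were called higher and 7 lower. Of all tested genes 44.7% were called, 22.6% higher and 22.1% lower. The neighbours of SORT1 were named after their values were seen.

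**Figure D3:**
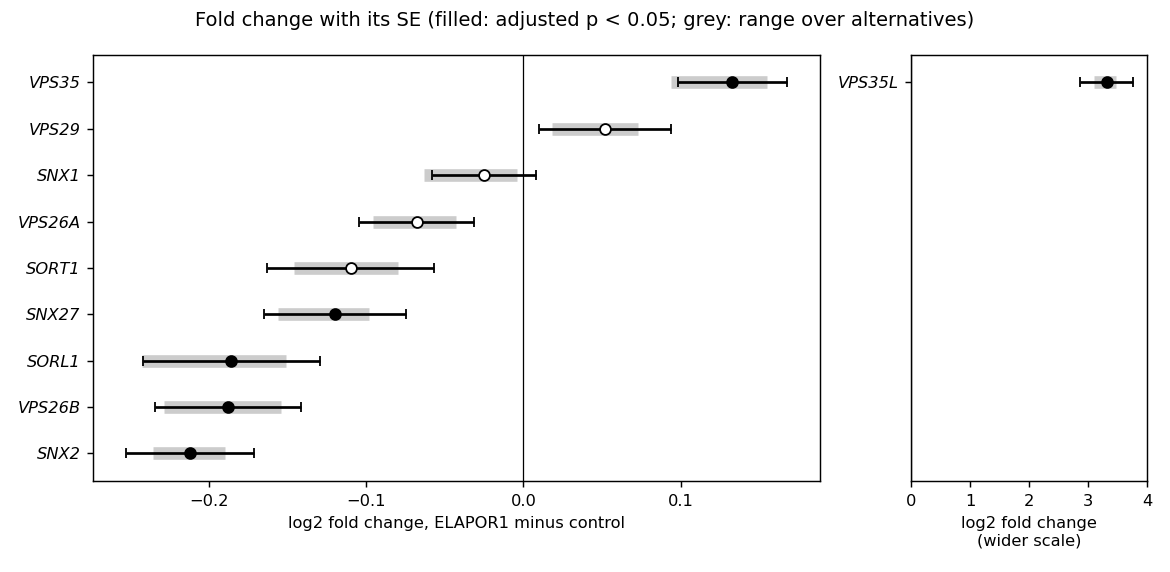
Log2 fold change (horizontal axis, ELAPOR1 minus control) of the 10 genes with its SE; filled points passed an adjusted p of 0.05 and grey bars give the range over the alternative analyses. VPS35L, which met the filter only through the ELAPOR1 libraries, has its own wider axis at 3.31. The other 9 genes lie between -0.21 and 0.13.

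Per exon length the 10 genes ranked VPS26A, VPS29, SNX2, SNX1, VPS35, VPS26B, SORT1, SNX27, SORL1 and VPS35L in control libraries. VPS26A stood at 146 ± 4.12 TPM, VPS29 at 87.7 ± 2.41, SNX2 at 80.2 ± 2.59 and SNX1 at 65.0 ± 1.68 TPM (SD, n = 4). VPS35 followed at 57.8 ± 2.88 TPM and VPS26B at 40.1 ± 2.15 TPM. The receptors and SNX27 were lower, with SORT1 at 18.02 ± 0.825, SNX27 at 13.2 ± 0.147 and SORL1 at 9.73 ± 0.967 TPM. No neighbours in this order overlapped in their control values.

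The order itself depends on the length used. With the longest transcript in place of the exon union, VPS29 (134 TPM) stood above VPS26A (117 TPM), VPS35 (60.1 TPM) above SNX1 (56.8 TPM) and SNX27 (22 TPM) above SORT1 (17.04 TPM). VPS35L remained last under both lengths. The log2 ratio of VPS35L to VPS35 was higher by 3.07 in ELAPOR1 (-6.91 ± 0.162 against -9.97 ± 0.486, SD, n = 4 each; two-sided exact permutation p = 0.0286, adjusted p = 0.0714), which did not pass after adjustment. With control counts of VPS35L this low it depends on the pseudocount, and was 1.87 with a pseudocount of 5 in place of 0.5.

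**Figure D4:**
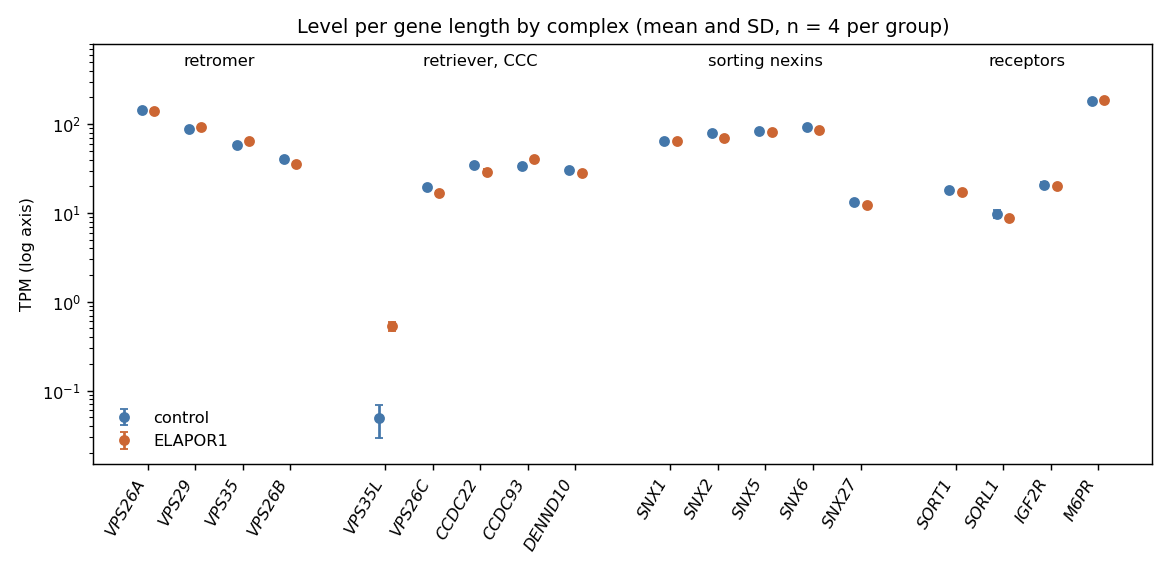
Level per exon length (TPM, log axis) of retromer, retriever and CCC, sorting nexin and receptor genes in control and ELAPOR1 libraries, mean with SD of 4 libraries. VPS35L, at 0.0493 TPM in control and 0.529 TPM in ELAPOR1 libraries, lies far below its retriever partner VPS26C, at 19.8 and 16.8 TPM.

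The 9 genes other than VPS35L had at least 500 counts in every library. For SNX1 the spread of CPM between control libraries was 2.09% of the mean, beside 1.84% from counting alone, and for SNX2 2.44% beside 2.51%. SORL1 and VPS26B varied more than counting gives in control (9.06% beside 3.37%, and 6.20% beside 2.88%). Of the 80 values of the 10 genes 1 was not a whole number (VPS35 in ELAPOR1 replicate 3).

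The remaining endosomal sorting genes moved in both directions. The test called 44.7% of all tested genes (22.6% higher and 22.1% lower), and 51.5% of those averaging at least 5 CPM. It called 60% of the tested genes in the nexin list below and 66.7% in the WASH list. Of 10 tested sorting nexins outside the 10 genes, 2 were called higher and 4 lower. SNX8, a nexin of early endosomes, fell from 78.8 ± 2.89 to 63.4 ± 3.52 CPM (SD, n = 4 each, log2 fold change -0.31, edgeR adjusted p = 8.3e-07). SNX11 rose by 0.41 (adjusted p = 8.5e-04) and SNX30 fell (-0.24, adjusted p = 0.0120). The WASH list holds 6 genes of the complex that nucleates actin on the endosome surface and 3 of the actin capping protein bound to it, and 3 of the 9 were called higher and 3 lower. The higher ones were the capping subunits CAPZA1 (0.16, adjusted p = 8.3e-05) and CAPZA2 (0.17, 9.5e-05) and the complex member WASHC4 (0.15, 4.8e-03). WASHC2C (-0.39, adjusted p = 4.3e-06), WASHC2A (-0.30, 1.8e-04) and WASHC1 (-0.26, 0.0327) fell. They belong to families of near-identical copies, so their counts are uncertain.

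Of 17 tested regulators of retromer, 7 were called higher and 2 lower, with a median log2 fold change of 0.11. The share called was 52.9%, beside 44.7% of all tested genes and 51.5% of those averaging at least 5 CPM. RAB5C, an early endosome GTPase, rose from 86.7 ± 1.71 to 106 ± 2.79 CPM (SD, n = 4 each, 0.29, edgeR adjusted p = 1.6e-07). MON1A (0.41, adjusted p = 6.7e-03) and CCZ1B (0.23, 2.2e-04), of the complex that activates RAB7, rose as well. CCZ1B has the near-identical copy CCZ1, so its value is uncertain. RAB7A itself, which recruits retromer to endosomes, fell by 0.14 on the log2 scale (adjusted p = 9.4e-05).

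The mannose 6-phosphate receptors, which like SORT1 carry lysosomal enzymes, were not called. IGF2R was at 101 ± 5.30 CPM in control and 95.5 ± 2.59 CPM with ELAPOR1 (SD, n = 4 each, -0.08, edgeR adjusted p = 0.131, approximate 95% interval -0.16 to 0.00). M6PR was at 186 ± 3.76 and 186 ± 4.84 CPM (0.00, adjusted p = 0.939, interval -0.06 to 0.07). Among all 10 tested receptors and GGA adaptors, 1 was called higher and 3 lower (40%, beside 44.7% of all tested genes). LMAN1, a cargo receptor of the early secretory pathway, fell from 221 ± 11.5 to 183 ± 2.92 CPM (-0.27, adjusted p = 5.9e-08), LRP1 fell (-0.26, adjusted p = 3.8e-03) and GGA2 rose (0.25, adjusted p = 1.6e-05). SORCS1 and SORCS3, relatives of SORT1 and SORL1, had no counts in any library.

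Of the 8 genes of the clathrin adaptor AP-1, which works with these receptors at the trans-Golgi network, 5 were called higher and 2 lower. The share called was 87.5%, beside 44.7% of all tested genes and 51.5% of those averaging at least 5 CPM. AP1G1, its gamma subunit, rose from 164 ± 6.08 to 207 ± 7.11 CPM (SD, n = 4 each, 0.34, edgeR adjusted p = 6.4e-10). AP1S2 rose by 0.40 (adjusted p = 7.7e-06), whereas the epithelial subunit AP1M2 fell (-0.36, adjusted p = 7.0e-07). Tethers and SNAREs that receive carriers from endosomes had 5 genes called higher and 5 lower of 18 (55.6%). STX10 fell from 38.2 ± 2.92 to 25.1 ± 1.41 CPM (-0.60, adjusted p = 1.7e-09), VPS51 of the GARP tether fell (-0.37, adjusted p = 1.2e-09) and VTI1A rose (0.29, adjusted p = 2.3e-04).

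The cargo lists held genes called in both directions. The share called was 78.3% for retromer and retriever cargo and 69.2% for sortilin-family ligands and lysosomal cargo. It was 44.7% for all tested genes and 51.5% for those averaging at least 5 CPM. Of 23 tested genes listed as retromer and retriever cargo, which include the mitochondrial enzyme gene GLUD1 (not called), 7 were higher and 11 lower, and of 13 tested sortilin-family ligands and lysosomal cargo genes 2 were higher and 7 lower. Among the former, SLC7A11 (a cystine transporter) fell from 49.6 ± 2.03 to 34.7 ± 2.45 CPM (SD, n = 4 each, -0.52, edgeR adjusted p = 2.2e-09), while KIDINS220 (0.44, 2.1e-09) and NETO2 (0.43, 3.7e-08) rose. Among the latter, PSAP, the precursor of the saposins and a sortilin ligand, fell from 671 ± 7.75 to 547 ± 12.8 CPM (-0.29, adjusted p = 6.8e-11), and the lysosomal glucosidase GAA fell (-0.28, adjusted p = 2.7e-05).

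No difference between these lists was tested. In earlier results of these data, genes along some stretches of chromosomes moved together. The part of such stretches in the changes of the listed genes was not tested, and NETO2 is among the 20 tested genes nearest to VPS35. The HOPS and CORVET list had 60% of its tested genes called, and ESCRT 59.3%. Of all tested genes 44.7% were called, and 51.5% of those averaging at least 5 CPM. HOPS and CORVET tethers had 2 genes called higher and 4 lower of 10, with TGFBRAP1 (0.32, edgeR adjusted p = 8.0e-07), VPS11 (-0.31, 5.2e-05) and VPS16 (-0.21, 3.9e-03) the largest. ESCRT, which sorts cargo into the vesicles that lysosomes degrade, had 8 higher and 8 lower of 27. CHMP1B fell from 140 ± 4.85 to 96.8 ± 3.18 CPM (SD, n = 4 each, -0.54, adjusted p = 8.6e-14), VPS28 fell (-0.39, adjusted p = 2.8e-08) and VPS4A rose (0.38, adjusted p = 1.7e-09).

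**Figure D5:**
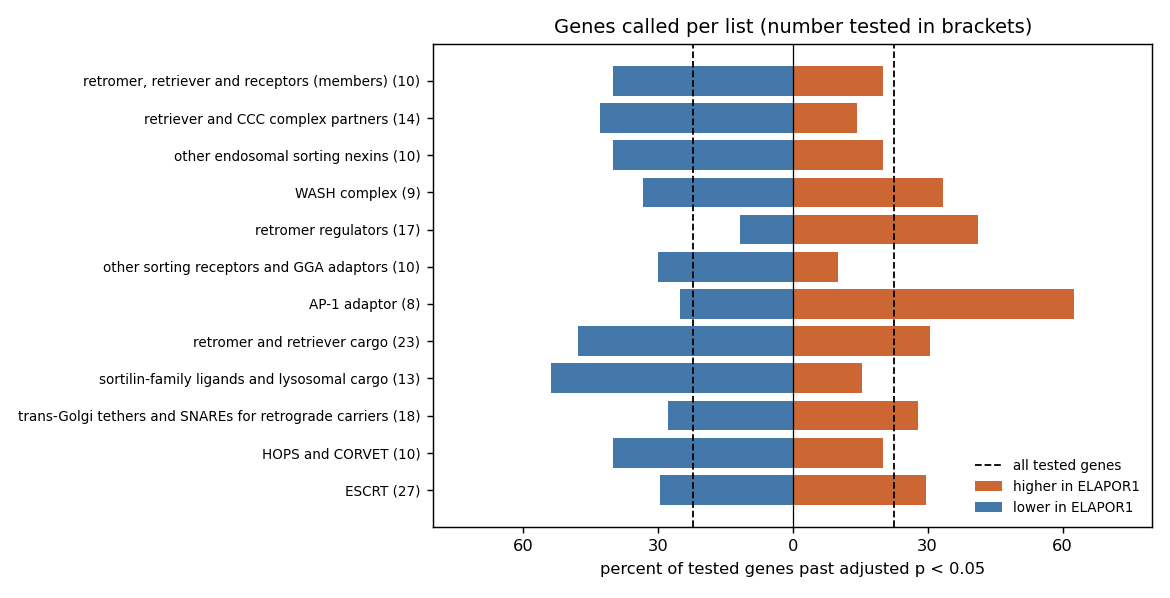
Percent of the tested genes of each list (number tested in brackets) that passed an adjusted p of 0.05, higher to the right and lower to the left; dashed lines give all tested genes, 22.6% higher and 22.1% lower. The 10 genes stand at 2 higher and 4 lower, and the AP-1 adaptor at 5 higher and 2 lower of 8. The higher genes of the 10 include VPS35L, which met the filter only through the ELAPOR1 libraries.

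Genes with the pattern most like a member were found by Pearson's correlation of log2(CPM + 1) over the 8 libraries among 10700 genes. The 8 points hold the difference between the groups, so the correlation is given as a description. SNX2 was followed most closely by DUSP16 (r = 0.992), FAM84B (0.990) and the lysosomal peptidase TPP1 (0.988), with 667 genes above 0.9. VPS26B was followed by IDH2 (0.985), GPX4 (0.985) and PSRC1 (0.981), with 488 genes above 0.9. SORL1 was followed by RNF168 (0.979), COPB1 (0.972) and RANBP9 (0.971), with 69 genes above 0.9.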

How the data were processed

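Total RNA of 8 libraries was sequenced on an Illumina NextSeq, per the labels' protocols. The authors deposited 1 table that holds RSEM's expected counts for each gene, some of which are not whole numbers. The submitters' processing notes name cutadapt, STAR, RSEM, DESeq2 and hg38, with no version. Neither annotation release nor strand setting is given in the sources used here. Groups and replicate numbers were taken from the labels.

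After rounding, counts went into edgeR 4.0.16 under R 4.3.3 (filterByExpr, TMM, robust quasi-likelihood, no covariate, two-sided, all 8 libraries), with Benjamini-Hochberg adjustment over 13860 genes. The SE is the log2 fold change over the square root of F, and approximate intervals are 1.96 SE. TPM used exon-union lengths of GENCODE 29, on GRCh38, in which 58597 of 58870 identifiers were found. Ratios used a pseudocount of 0.5 and scipy 1.17.1. ELAPOR1, listed as KIAA1324, and DENND10, listed as FAM45A, were matched by gene identifier. The procedure was tested on simulated data. Alternatives covered DESeq2 1.42.0, limma 3.58.1 voom, scaling, filters, GC and length trends, a replicate block and each library left out. Plots used matplotlib 3.10.9.

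The members and the 11 accompanying lists were chosen with earlier results of these data known, so no list is independent evidence. Named were all members and, per list, up to 3 called genes with the largest change and a mean of at least 5 CPM, and VPS26C, SNX5, SNX6, IGF2R and M6PR whatever their values. One gene that this rule names is not reported here. CCDC93, COMMD2, COMMD4, CAPZA1, CAPZA2, WASHC4, GLUD1 and RAB7A were named after their values were seen.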

Additional observations from a re-analysis of the deposited data

Results flagged for a closer look

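A library was looked at again where it stood apart from the other 3 of its group by more than Dixon's 95% critical value for 4 samples. This was examined in 108 groups of 4 and found in 4, where chance gives about 1 in 20 groups. For VPS29, control replicate 1 gave 72.27 CPM against 78.14 to 78.19 CPM in the rest of its group. For SNX30, control replicate 3 gave 24.25 CPM against 20.51 to 21.04 CPM in the rest of its group. For WASHC1, ELAPOR1 replicate 3 gave 15.53 CPM against 16.55 to 16.74 CPM in the rest of its group. For GGA2, control replicate 2 gave 70.85 CPM against 76.49 to 77.05 CPM in the rest of its group.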

How the results depend on the processing

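No called change reversed its direction under the alternatives run. With trends against GC content and length removed, VPS26A (-0.086, adjusted p = 0.0305) and SORT1 (-0.145, adjusted p = 0.0159) passed edgeR's test, likewise with the replicate block added (-0.087 and 0.0361, -0.146 and 0.0204), and the cause was not tested. SNX27 lost its call with total count scaling (-0.098, adjusted p = 0.0751) and with no filter (-0.122, adjusted p = 0.0575, more genes tested). With each library left out it ranged from -0.137 to -0.108 and lost the call in 5 of 8 fits, each with fewer samples. Apart from VPS35L, which met the filter only through the ELAPOR1 libraries, no gene of the 10 was called by a test against a 1.5-fold change. That test called 215 of all genes (124 higher, 91 lower) in place of 6193. With a library left out, 5 to 6 of the 10 were called, and each of these counts includes VPS35L. VPS35L was not tested where at least 10 counts were required in every library. Its log2 ratio to VPS35 ran from 1.869 to 3.371 over the pseudocounts and left-out libraries.

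The replicate numbers did not pair the samples: same-numbered libraries had correlations of -0.121, 0.027, 0.032 and -0.107, and not every library correlated best with its own number. The replicate block changed no call among the 10, with 5926 calls over all genes. VPS35 (0.134), VPS26B (-0.188), SNX2 (-0.211), SNX27 (-0.120) and SORL1 (-0.182) stayed called. VPS35L stood at 3.313, given as a description since it met the filter only through the ELAPOR1 libraries. Blocked ratios cannot go below an exact p of 0.125, nor ratios of 3 against 4 libraries below 0.0571. Total count scaling moved the median of all genes to 0.022 and the calls to 3490 higher and 2736 lower. Median log2 fold changes of neighbours moved with the window for VPS35, VPS35L, SNX1, SNX27 and SORL1. Medians near 0 changed sign for SNX1 (-0.092 to 0.024 with 5 genes on a side), SNX27 (0.019 to -0.047 with 5 and -0.017 with 20), SNX2 (-0.018 to 0.019 with 5 and 0.011 with 20) and VPS26A (0.012 to -0.016 with 20). Depth limits VPS35L, at 1 to 3 counts in each control library.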

Other observations

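Some genes of the accompanying lists lay outside the rule for named genes and were chosen after their values were seen. MVB12B, an ESCRT-I subunit, had 1, 3, 6 and 1 counts in the control libraries and 13, 18, 18 and 11 in the ELAPOR1 libraries, with no overlap. MMP14, a membrane protease that endosomes return to the cell surface, had 32, 34, 28 and 37 counts in control and 8, 11, 6 and 7 in ELAPOR1 libraries, again with no overlap. Each met the filter on low counts mainly through the group where it is high, so no test is given.

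Abundant cargo genes moved by less. TGOLN2, which cycles between the trans-Golgi network and the cell surface, rose from 231 ± 12.5 to 291 ± 5.98 CPM (SD, n = 4 each, log2 fold change 0.33, edgeR adjusted p = 6.8e-10). TFRC, the transferrin receptor, fell from 444 ± 18.7 to 370 ± 4.81 CPM (-0.26, adjusted p = 1.1e-08).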
